A study of Mus musculus with 29 samples.

Results

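The S100 calcium binding genes S100a1, S100a4, S100a6, S100a8, S100a9, S100a10, S100a11, S100a13, S100a14 and S100a16 were chosen by symbol, 10 of the 35199 genes in the tables, and their RNA levels were followed in mouse urothelium and bladder tumors. In the 4-day experiment, 4 control libraries (labelled wild type, K5;mTmG in the study's methods) and 5 K5VP16;Pparg+/- libraries (K5VP16;Pparg;mTmG) came from untreated adult mice in homeostasis, as GFP-positive cells sorted from dissociated urothelium 4 days after tamoxifen, which the controls received too. The mutant allele, in the Rosa26 locus, joins the VP16 activator to Pparg behind a stop that Cre removes in Krt5-expressing basal cells, so only recombined cells and their descendants carry the active form. In the tumor experiment the mice received the carcinogen BBN, for 1 month before tamoxifen was given into the bladder by the study's account, with 4 months between tamoxifen and the laser capture of tissue (titles give 4 months, the treatment label 5 months of BBN). It gave 3 basal tumors of wild type mice and, from K5VP16;Pparg+/- mice, 3 luminal tumors and the top (luminal domain) and bottom (basal-like domain) of mixed lesions, with 3 captures each.

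S100 proteins are small calcium sensors of the EF-hand family that mostly act as dimers. Inside cells they bind target proteins such as annexins and myosin when calcium rises, and some are released and act on receptors of other cells. Stratified and transitional epithelia express many of them, and S100a8 and S100a9 are also abundant in neutrophils and monocytes.

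All 10 genes lie on chromosome 3 (GRCm38.p6), 8 of them within 185 kb and S100a11 with S100a10 2825 kb further along. S100a1 and S100a13 run head to head, and their annotated ends share 98 bases. The libraries (SMART-Seq v4 and Nextera XT) do not mark strand, so reads from those shared bases cannot be told apart. Values are the authors' normalized counts, each table normalized on its own. They summed to between 36520193 and 41435665 a library at 4 days and to between 41697178 and 53252995 in the table of basal and luminal tumors. The study aimed at 40 M reads a library, and whole reads could not be recovered from the values.

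Libraries were checked against their labels with Pparg and with Fabp4, a lipid carrier that Pparg activates. Fabp4 lay at 327, 449, 207 and 467 normalized counts in the controls CT063, CT065, CT066 and CT067, and at 30598, 7617, 4969, 5904 and 6934 in the mutants CT070, CT071, CT074, CT076 and CT078. Every mutant library lay above every control, and the log2 fold change was 4.64 (SE 0.49, limma adjusted p = 0.00171). Pparg itself lay between 9381 and 9999 in controls and between 6111 and 9032 in mutants (log2 fold change -0.36, adjusted p = 0.126), and whether transcripts of the mutant allele count toward it was not tested. Among the tumors Pparg stood at 126, 13 and 102 in the basal tumors CT111, CT113 and CT115 and at 7216, 8632 and 3579 in the luminal tumors CT126, CT132 and CT140, so Pparg fits the labels. Pparg rose by 6.74 on the log2 scale (adjusted p = 0.0135; 0.0879 without CT126 and 0.0814 without CT132). Fabp4 did not separate the tumors. It was at 1082, 75.5 and 48304 in the same basal and at 31727, 310097 and 197271 in the same luminal tumors, with the basal CT115 above the luminal CT126 (log2 fold change 6.30, SE 2.17, adjusted p = 0.172).

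The 4-day libraries also differed in a way the genotype does not name. The summed level of the Y-linked genes Ddx3y, Eif2s3y, Kdm5d and Uty was 9030, 9177 and 9046 in the controls CT065, CT066 and CT067, and 404 in the control CT063. In the mutants it was 357, 338, 395, 389 and 387. The Y-linked level and the genotype therefore divide these libraries almost alike and cannot be told apart, except through CT063. The S100a1 and S100a4 results are given below with and without the 3 controls of high Y-linked level.

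At 4 days after induction, the 9 S100 genes that could be tested all had a higher mean in K5VP16;Pparg+/- cells than in controls, and S100a1 and S100a4 rose past the threshold. S100a1 is a calcium sensor best known from heart muscle, where it acts on calcium release channels. S100a4 binds nonmuscle myosin and is known from motile cells and fibroblasts. The other 7 missed the threshold, and in most of them the mutant libraries differed widely among themselves.

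S100a1 was at 1890, 2137, 2065 and 2473 normalized counts in the controls CT063, CT065, CT066 and CT067, and at 4701, 3112, 4443, 3160 and 3166 in the mutants CT070, CT071, CT074, CT076 and CT078. The lowest mutant library lay above the highest control, with CT070 and CT074 standing highest. The mean went from 2141 ± 244 (SD, n = 4) to 3716 ± 787 (SD, n = 5), a log2 fold change of 0.78 (SE 0.15, limma adjusted p = 0.0295), higher in all 5 mutants. S100a4 was at 298, 505, 452 and 479 in the same controls and at 1349, 800, 1442, 830 and 749 in the same mutants. Again the groups did not overlap and CT070 and CT074 were highest. The means were 433 ± 92.7 and 1034 ± 333 (SD), with a log2 fold change of 1.22 (SE 0.25, limma adjusted p = 0.0312). These 2 of 9 genes compare with 467 of 16413 genes called in either direction (2.85%), 290 called higher (1.77%), and 767 higher without overlap (4.67%). The members' median log2 fold change was 0.78, against 0.00 over all tested genes, and 5 of the 9 had an unadjusted p under 0.05, against 3418 of 16413 genes. Both calls depended on single libraries. The adjusted p of S100a1 became 0.0676 without CT063, 0.0884 without CT065, 0.0962 without CT066, 0.0538 without CT067 and 0.0640 without CT074. That of S100a4 became 0.0636, 0.0728, 0.0910, 0.0696 and 0.0644 without the same libraries and 0.0602 without CT070. Without all 3 controls of high Y-linked level, an alternative chosen after seeing the data that leaves CT063 as the only control, the log2 fold changes were 0.95 for S100a1 and 1.73 for S100a4. CT063 held the lowest S100a1 and S100a4 of all 9 libraries, so these larger values follow from the choice of control and say nothing about the Y-linked difference. The count of all genes called became 154 without CT065, 129 without CT066, 169 without CT067, 311 without CT070 and 228 without CT074. Without eBayes' trend the adjusted p was 0.0590 and 0.0568, and in the smaller table of 3 against 3 libraries it was 0.126 and 0.143.

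**Figure D1:**
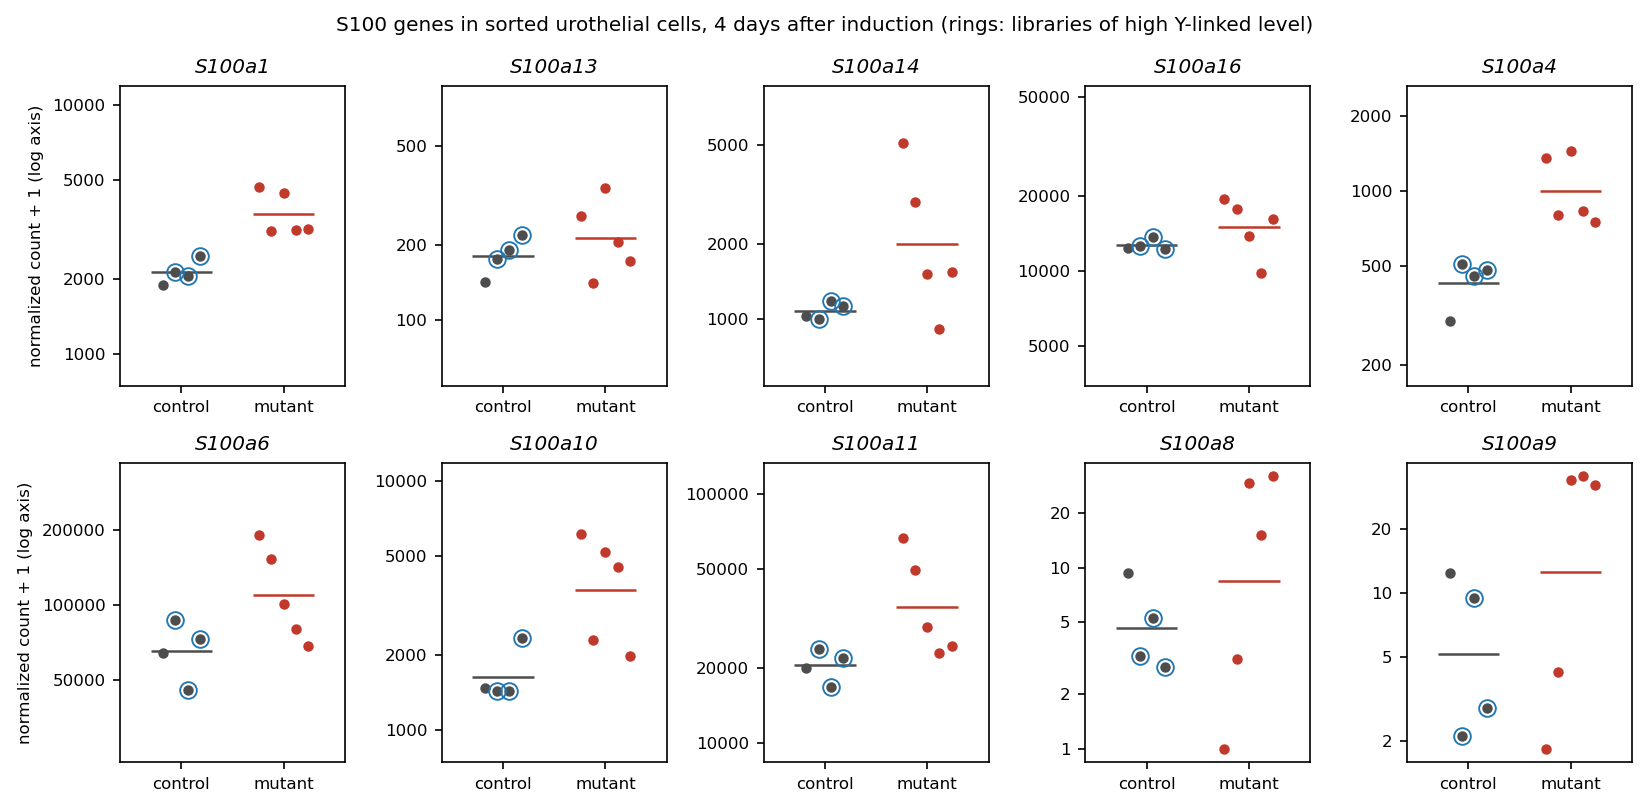
Normalized counts + 1 (log axis) of the 10 S100 genes in 4 control and 5 mutant libraries 4 days after induction, where each point is 1 library, lines are geometric means and rings mark the libraries of high Y-linked level. S100a1 (3112 or more in mutants, 2473 or less in controls) and S100a4 (749 or more, 505 or less) are the panels without overlap.

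The genes that bind annexins and other membrane partners came next. S100a10 holds annexin A2 in a tetramer at the membrane and is itself insensitive to calcium, S100a11 binds annexin A1 and is found in the cornified envelope, and S100a6 binds the calcyclin binding protein Cacybp. S100a10 was at 1480, 1435, 1436 and 2355 in the controls and at 6157, 2314, 5192, 4514 and 1983 in the mutants. CT070, CT074 and CT076 lay well above the controls, while CT071 and CT078 fell below the control CT067 (log2 fold change 1.16, SE 0.34, limma adjusted p = 0.0937). S100a6 was at 64340, 87041, 45730 and 73200 in the controls and at 191340, 154022, 100743, 80159 and 68839 in the mutants, and S100a11 at 20092, 23982, 16887 and 22033 and at 66441, 49735, 29240, 23068 and 24566. In both genes CT070 and CT071 were the 2 highest libraries and the other mutants reached into or near the control range (log2 fold changes 0.75 and 0.78, adjusted p = 0.223 and 0.186). The same libraries were highest for S100a14 and S100a16, epithelial members with weak calcium binding. S100a14 was at 1003 to 1183 in the controls, 5104 in CT070 and 2953 in CT071, but at 912 to 1542 in the other mutants (adjusted p = 0.262). S100a16 spanned 12234 to 13734 in controls and 9846 to 19519 in mutants (adjusted p = 0.492). S100a13, which takes part in the release of Fgf1 and Il1a, overlapped most, at 141 to 219 and 139 to 336 (log2 fold change 0.24, SE 0.27, adjusted p = 0.657).

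The S100a6, S100a11, S100a14 and S100a16 levels of CT070 and CT071 went with those of squamous, epithelial and luminal urothelial markers in the same libraries. The 10 squamous markers, of which Sprr1a was the most abundant, summed to 331717 in CT070 and 249954 in CT071, against 78528 to 134805 in the other mutants and 98608 to 112576 in the controls. The epithelial markers, led by Krt7, summed to 750045 and 601153 in CT070 and CT071 and to 369162 to 474547 in the other 7 libraries, and the luminal markers, led by Upk1a, to 532734 and 461356 and to 265203 to 439377. Of the 7 squamous markers tested, 5 had a higher and 2 a lower mean in mutants and 0 was called by limma (1 at an unadjusted p under 0.05). In 5 of the 9 libraries 2 or more of all 10 were listed at 0. The part of any of these lists in the S100 levels was not tested.

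S100a8 and S100a9, the subunits of calprotectin, were close to absent from the sorted cells. S100a8 lay at 8.4, 2.3, 4.3 and 1.8 in the controls and at 0, 2.1, 28.3, 14.1 and 31.1 in the mutants, and it was not tested because only 3 libraries reached 10. S100a9 lay at 11.4, 1.1, 8.5 and 1.9 and at 0.84, 3.2, 33, 34.6 and 31.4 (log2 fold change 1.28, SE 1.01, limma adjusted p = 0.511). CT074, CT076 and CT078 were high for both genes and CT070 and CT071 low, the reverse of the order seen for S100a14. The 11 monocyte and macrophage markers, led by Cd14, divided the mutants likewise, summing to 5732, 6168 and 5179 in CT074, CT076 and CT078 and to 2976 and 3688 in CT070 and CT071. In the controls they summed to 3211 to 4782, and of the 9 tested (6 higher, 3 lower) 0 was called by limma and 2 had an unadjusted p under 0.05. The 10 neutrophil markers, led by Cxcr2, summed to 102 to 161 in the controls and 116 to 218 in the mutants, with Elane listed at 0 throughout and 0 of 3 called or under an unadjusted p of 0.05. The part of such cells in these low values was not tested.

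Stromal markers were also present after the sort. The 7 fibroblast markers all had a higher mean in mutants, with a median log2 fold change of 2.04, 6 at an unadjusted p under 0.05 and 1 called (Lum, log2 fold change 2.70, limma adjusted p = 0.0303). Dcn was the most abundant. They summed to 11668, 25065, 42220 and 84728 in the controls CT063, CT065, CT066 and CT067 and to 84570, 30691, 217844, 129224 and 66823 in the mutants CT070, CT071, CT074, CT076 and CT078. CT074 was highest and CT063 lowest for these markers as for S100a4, while CT070, with S100a4 at 1349, had a sum close to that of the control CT067, with S100a4 at 479, and CT071, with S100a4 at 800, a lower one. S100a4 is itself expressed by fibroblasts, and the part of such cells in its rise was not tested. The call of Lum was lost without CT063 (adjusted p = 0.0671), CT065 (0.0982), CT066 (0.0942), CT070 (0.0630), CT074 (0.0663) or CT076 (0.0534), without eBayes' trend (0.0570) and in the smaller table (0.197). The 6 smooth muscle markers, led by Acta2, were higher in all 6 with 0 called by limma (4 at an unadjusted p under 0.05) and summed to 174 to 1042 in the controls and 410 to 2719 in the mutants, and 4 endothelial markers, led by Kdr, to 256 to 1135 and 267 to 1300 (0 of 3 called, 1 at an unadjusted p under 0.05). T cell markers, led by Cd3d, summed to 147 to 237 and 122 to 185 (0 of 6 called, 1 at an unadjusted p under 0.05). In each such bulk sample, fewer cells of a type and less RNA per cell cannot be told apart.

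At 4 days the epithelial list had 4 higher and 2 lower of 6, and the luminal list 7 higher and 3 lower of 10. Epcam fell by 0.72 on the log2 scale (adjusted p = 0.0189; 0.0587, 0.0636 and 0.0511 without CT065, CT066 or CT067, and 0.0806 in the smaller table). Krt20 rose by 1.83 (adjusted p = 0.0444), a call lost without CT063 (0.0913), CT065 (0.0565), CT066 (0.135), CT067 (0.0881), CT070 (0.0700), CT071 (0.0632), CT074 (0.0843) or CT078 (0.0721), without eBayes' trend (0.0741) and in the smaller table (0.0565).

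Because S100a4 passed the test at 4 days, and S100a9, S100a11 and S100a16 hold letters that known factors bind, the 250 bases before their annotated starts are shown (RefSeq, GRCm38.p6, 5′ to 3′ on each gene's strand). Of the 10 members 8 had a promoter entry, and S100a10 and S100a14 are named only. The window of S100a1, which also passed the test, is not shown because 93 of its bases lie in annotated exons. Capitals mark matches, on either strand, to TGANTCA (AP-1) or TTGCNNAA (C/EBP). S100a4 lies at chr3:90603520-90603769 (+), S100a16, the second of its 2 starts, at chr3:90540896-90541145 (+), S100a9 at chr3:90695722-90695971 (-) and S100a11 at chr3:93520246-93520495 (+).
S100a4: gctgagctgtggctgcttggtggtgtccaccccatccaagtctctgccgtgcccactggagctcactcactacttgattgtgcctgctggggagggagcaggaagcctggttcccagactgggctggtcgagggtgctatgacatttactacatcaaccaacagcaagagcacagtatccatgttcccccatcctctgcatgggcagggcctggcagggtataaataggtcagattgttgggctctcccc
S100a16: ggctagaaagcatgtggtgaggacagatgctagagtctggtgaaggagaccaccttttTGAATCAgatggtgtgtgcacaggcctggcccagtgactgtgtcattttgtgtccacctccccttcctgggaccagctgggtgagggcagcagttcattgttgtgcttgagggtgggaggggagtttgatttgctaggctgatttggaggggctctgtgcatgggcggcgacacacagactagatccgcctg
S100a9: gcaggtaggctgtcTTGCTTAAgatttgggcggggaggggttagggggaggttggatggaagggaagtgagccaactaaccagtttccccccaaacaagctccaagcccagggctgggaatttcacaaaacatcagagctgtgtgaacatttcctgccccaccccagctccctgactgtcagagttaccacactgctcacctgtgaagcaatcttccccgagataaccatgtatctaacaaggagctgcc
S100a11: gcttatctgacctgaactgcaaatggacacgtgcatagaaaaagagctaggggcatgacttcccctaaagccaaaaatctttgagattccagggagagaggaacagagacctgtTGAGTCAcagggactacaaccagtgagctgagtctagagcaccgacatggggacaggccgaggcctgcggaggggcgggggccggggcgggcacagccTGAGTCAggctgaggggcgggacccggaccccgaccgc
S100a11 held 2 AP-1 matches, 136 and 38 bases before its start, S100a16 held 1 at 192 bases, and S100a9 held 1 C/EBP match at 236 bases. The windows of S100a1, S100a4, S100a6, S100a8 and S100a13 and the first of S100a16 held neither, and no member's window held the PPAR element DR1, the letters AGGTCA repeated after 1 base. Annotated exons also cover 192 bases of the S100a13 window, 93 of that of S100a8, 12 of that of S100a6 and 8 of that of S100a11. Over 32851 promoter windows of this length, 6.75% held the AP-1 letters, 9.56% those of C/EBP and 0.0335% those of DR1. A match describes the letters and shows no binding.

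In tumors of mice given BBN, the comparison of luminal with basal tumors asked how the S100 genes stood once luminal tumors had formed under the active Pparg. S100a14, S100a16 and S100a1 lay higher in every luminal tumor than in any basal tumor, S100a10 and S100a4 had lower means, and S100a8 and S100a9 differed more within each group than between them. None of the 10 passed the test. With limma, 0 of 10 members and 338 of 15357 genes (2.2%) were called, while 3 members and 2820 genes had an unadjusted p under 0.05. Of the members, 5 had a higher and 5 a lower mean in luminal tumors, and with quantile normalization 4 and 6. Their median log2 fold change was -0.05, against -0.11 over all genes, and with quantile normalization -0.37, against 0.02. Labels do not tie captured regions to mice, so some may share an animal and p-values over regions may be too small. They measure only the spread between these samples.

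S100a14 was at 19282, 15662 and 12602 in the basal tumors CT111, CT113 and CT115, and at 27279, 45417 and 31588 in the luminal tumors CT126, CT132 and CT140. S100a16 was at 41233, 34999 and 44981 and at 78294, 66188 and 75886. Both groups were tight for S100a16, and every luminal tumor stood above every basal one for both genes. Log2 fold changes were 1.12 for S100a14 (SE 0.31, limma adjusted p = 0.103) and 0.87 for S100a16 (SE 0.28, adjusted p = 0.152), which the test over all genes did not pass. S100a1 was at 10652, 1357 and 3369 and at 11362, 109805 and 12690. The groups did not overlap, but the basal tumor CT111 came close to the luminal CT126, and CT132 stood far above the rest (log2 fold change 2.78, SE 1.13, adjusted p = 0.231). These 3 genes without overlap, of 10, compare with 1533 of 15357 genes (9.98%) that were higher without overlap.

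Among the annexin partners, S100a10 was at 54404, 18442 and 61712 in the basal tumors and at 11612, 20932 and 26154 in the luminal tumors. CT111 and CT115 were high and CT113 lay among the luminal tumors (log2 fold change -1.09, SE 0.50, limma adjusted p = 0.282). S100a11 was at 102041, 127473 and 284931 and at 305838, 234412 and 138833, and S100a6 at 192554, 333310 and 129065 and at 576577, 846807 and 263206. Both overlapped, and the log2 fold change of S100a11, 0.48, became -0.13 with quantile normalization. That of S100a6 was 1.32 (SE 0.61, adjusted p = 0.285).

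S100a4 was at 9857, 24948 and 3285 in the basal tumors and at 3006, 4940 and 6755 in the luminal tumors. CT113 was the highest, and CT115 lay below 2 of the luminal tumors (log2 fold change -1.00, SE 0.66, limma adjusted p = 0.456). The size of this S100a4 difference rested on single libraries, being much smaller without CT113 and larger without CT115. CT113, highest for S100a4, had the highest T cell and endothelial marker sums of the basal and luminal tumors. Among the basal tumors its fibroblast and smooth muscle sums were the lowest, and its macrophage and neutrophil sums lay in between. The part of other cells in the S100a4 levels was not tested. S100a13 overlapped fully, at 4403, 1076 and 2034 and at 694, 2941 and 1407 (log2 fold change -0.58, SE 0.70, adjusted p = 0.71). Almost none of that S100a13 difference was left without CT111 or without CT126, and it was larger without CT132.

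S100a4, S100a8 and S100a9 are also expressed by stromal and immune cells, whose markers differed between the tumors list by list. Fibroblast markers, led by Col3a1, were lower in 7 of 7 and called in 3 (Pdgfrb, Col1a2 and Col1a1). They summed to 67706, 45144 and 63077 in CT111, CT113 and CT115 and to 805, 212 and 17149 in CT126, CT132 and CT140, so CT113 was the lowest basal tumor here. Macrophage markers, led by Lyz2, were lower in 10 of 11 and called in 1 (Fcgr1), and summed to 165185, 77229 and 35255 and to 23930, 4328 and 21747, with 2 listed at 0 in CT132 and 1 in CT140. Smooth muscle markers, led by Acta2, were lower in 6 of 6 and called in 3 (Cnn1, Acta2 and Tagln), and summed to 51208, 6010 and 48256 and to 240, 150 and 1254. Endothelial markers, led by Pecam1, were lower in 4 of 4 with 0 called by limma (2 at an unadjusted p under 0.05), and summed to 1582, 2287 and 1252 and to 701, 370 and 1053. T cell markers, led by Cd3g, summed to 373, 10095 and 561 and to 766, 198 and 910, with 2 higher and 5 lower, 0 of 7 called and 1 at an unadjusted p under 0.05. Of own markers, Krt8 and Krt19 of the epithelial list, Upk3a, Upk1a, Upk3b and Upk2 of the luminal list and Ivl and Sprr1a of the squamous list rose past the threshold. The epithelial list had 4 higher and 2 lower of 6, the luminal list 10 higher of 10. The squamous list as a whole was mixed, with 4 higher and 6 lower of 10 and a median log2 fold change of -1.33. Of these 15 called markers, 15 were lost without CT111 (adjusted p 0.0503 to 0.163), 9 without CT113 (0.0611 to 0.0882), 10 without CT115 (0.0651 to 0.129), 15 without CT126 (0.0879 to 0.143), 10 without CT128 (0.0509 to 0.0843), 15 without CT132 (0.0814 to 0.150), 2 without CT140 (0.0530 to 0.0599) and 10 without CT143 (0.0509 to 0.0818). Of the 15, 13 were lost without eBayes' trend (0.0510 to 0.135), 12 without a filter (0.0547 to 0.0845), 9 with luminal and basal tumors alone in the fit (0.0508 to 0.0800), 5 with all 5 luminal libraries (0.0622 to 0.222), 3 with quantile normalization (0.0602 to 0.0755), 2 with a pseudocount of 0.5 (0.0515 and 0.0524) and 1 with a filter at 50 (0.0511). All genes called numbered 14, 211, 100, 3, 117, 3, 813 and 116 without CT111, CT113, CT115, CT126, CT128, CT132, CT140 and CT143.

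**Figure D2:**
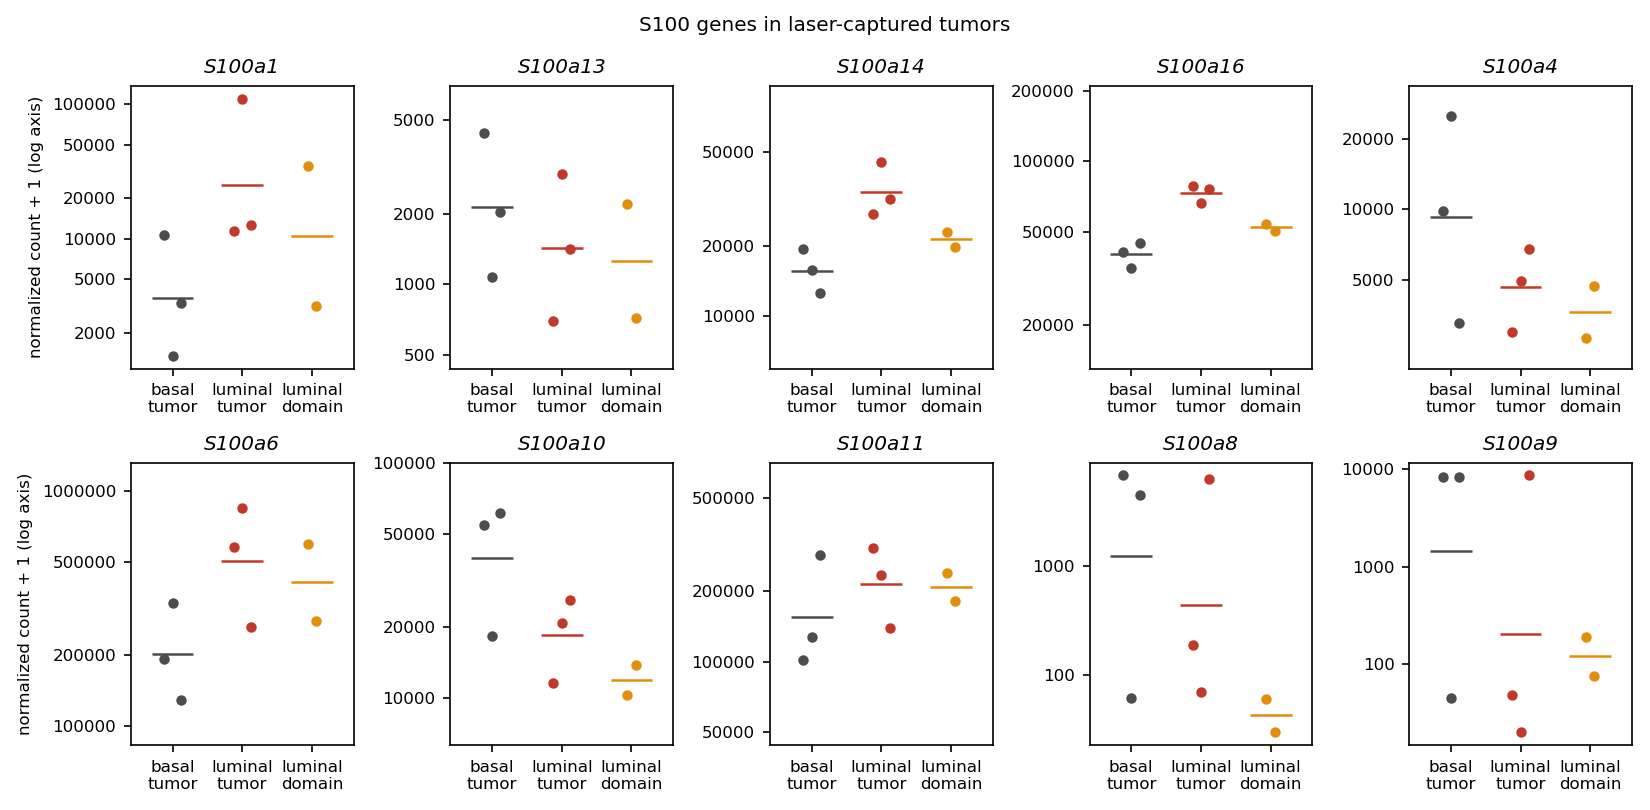
Normalized counts + 1 (log axis) of the 10 S100 genes in basal tumors, luminal tumors and the luminal domains CT128 and CT143. Each point is 1 captured library and lines are geometric means. S100a16 separates basal (44981 or less) from luminal tumors (66188 or more), while S100a8 spans from 60.4 to 6899 within the basal tumors.

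S100a8 and S100a9 went together from tumor to tumor and did not follow the subtype. S100a8 was at 6899, 60.4 and 4498 in the basal tumors CT111, CT113 and CT115, and at 187, 68.2 and 6356 in the luminal tumors CT126, CT132 and CT140. S100a9 was at 8285, 43.9 and 8234 and at 47.1, 19.1 and 8586. CT111, CT115 and CT140 were high for both genes and CT113, CT126 and CT132 low, so that each subtype held both kinds (log2 fold changes -1.51, SE 2.0, and -2.84, SE 2.49, limma adjusted p = 0.738 and 0.587). Both fold changes rested on single libraries, being much smaller without CT132 and larger without CT113 or CT140. That of S100a8 was also much smaller without CT111. Neutrophil markers, led by Ltf, summed to 1787, 9469 and 22764 and to 417, 1075 and 3001. Of the 10 markers 6 were tested, 1 higher and 5 lower, with 0 called by limma or under an unadjusted p of 0.05, and the granule genes Elane, Camp and Ngp were listed at 0 in all 8 libraries of the table. Macrophage markers summed to 165185, 77229 and 35255 and to 23930, 4328 and 21747. Squamous markers, led by Sprr1a, summed to 310687, 195890 and 687696 in the basal and 343150, 1371170 and 494226 in the luminal tumors, and CT132 was highest for these. The part of these cells in the S100a8 and S100a9 levels was not tested.

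**Figure D3:**
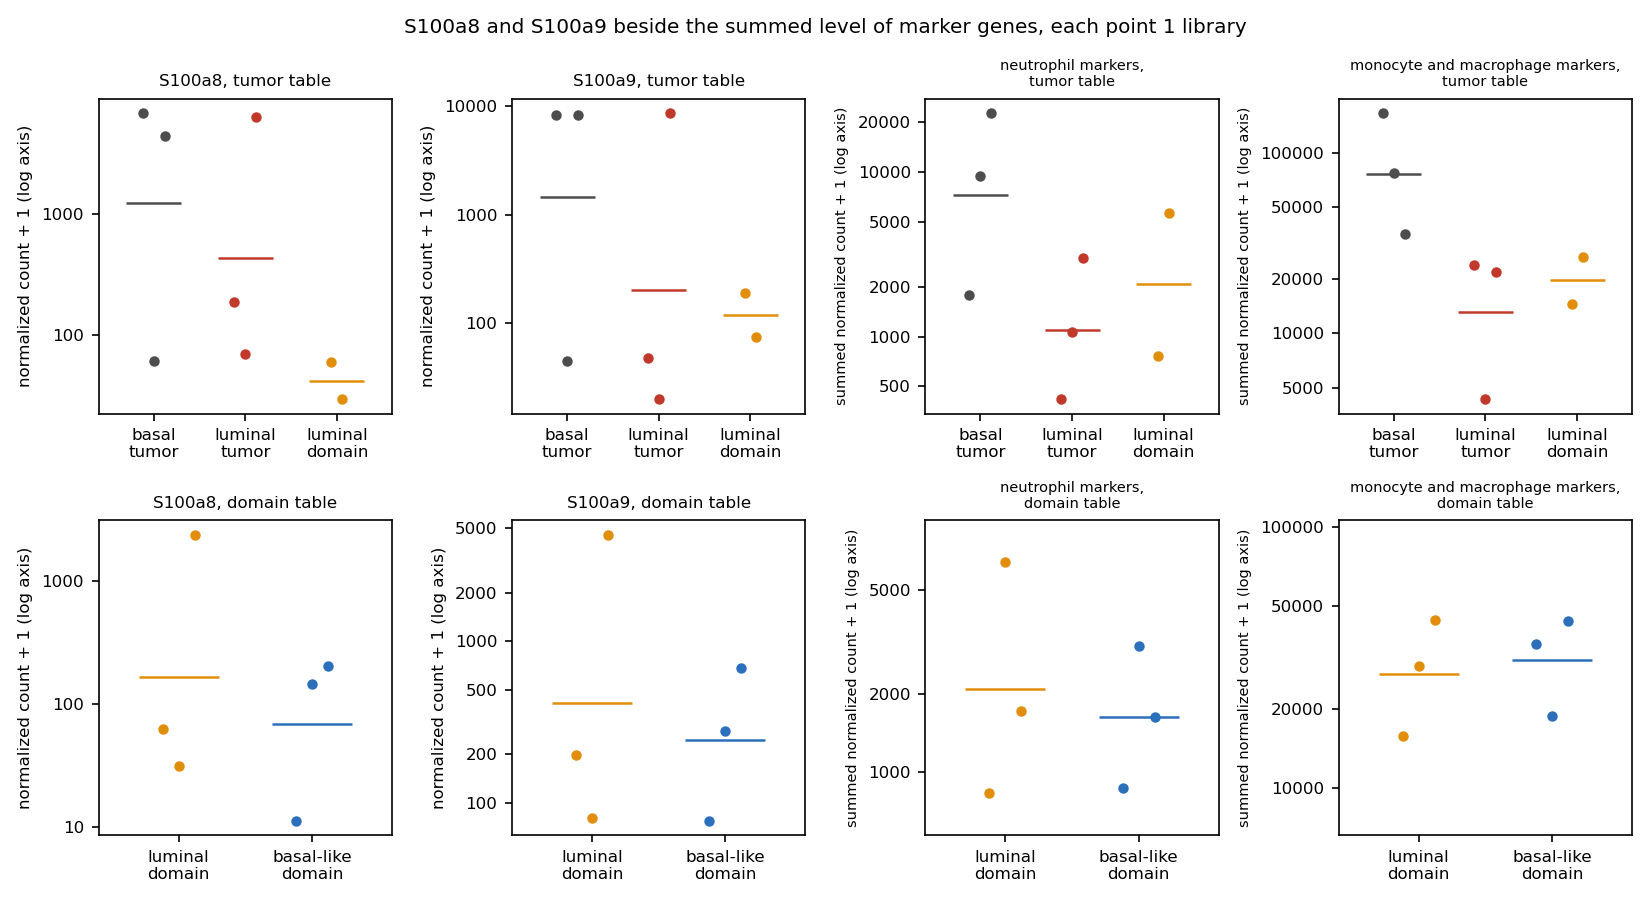
S100a8 and S100a9 (normalized count + 1, log axis) beside the summed normalized counts + 1 of neutrophil and of monocyte and macrophage markers, where each point is 1 library and lines are geometric means, for the tumor table above and the domain table below. S100a8 is at 6899, 60.4 and 4498 in the basal tumors CT111, CT113 and CT115, where the neutrophil markers sum to 1787, 9469 and 22764.

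By the root mean square difference of log2 values centred within each table, over the 17 libraries of the 4-day and tumor tables and 14249 genes (those tested in both tables, with S100a8 added), S100a9 was the gene nearest to S100a8 (0.95), followed by Cercam (1.06) and Pbld1 (1.23), with a median of 2.60 over all genes. Nearest to S100a9 were S100a8 (0.95), Slco5a1 (1.28) and Cercam (1.28), with a median of 2.84. S100a4 was nearest to Arsb (0.41), Vmp1 (0.56) and Acsl4 (0.57), with a median of 1.09.

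The luminal domains of mixed lesions were set against the same basal tumors in a separately normalized table, so this comparison shares its basal tumors with the one above and is given beside it without a test between them. S100a14 and S100a16 again lay higher in every K5VP16;Pparg+/- library. In the luminal domains CT128, CT143 and CT148 S100a14 was at 24471, 21526 and 26131, and in the basal tumors CT111, CT113 and CT115 at 20404, 16250 and 13186. S100a16 was at 57556, 54743 and 67424 and at 43360, 36085 and 46769. The gaps were narrow, and with limma 0 of 10 members and 377 of 14921 genes (2.53%) were called, with 1 member and 3072 genes at an unadjusted p under 0.05. The log2 fold changes were 0.55 for S100a14 (SE 0.26, adjusted p = 0.288) and 0.51 for S100a16 (SE 0.27, adjusted p = 0.334), against 1.12 and 0.87 in whole luminal tumors. The 2 of 10 members without overlap compare with 2092 of 14921 genes (14%). Some regions may share an animal, which can make these p-values too small.

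Of the other members, S100a1 was at 37020, 3425 and 21973 in the luminal domains and at 11163, 1394 and 3491 in the basal tumors, and CT143 lay within the basal range (log2 fold change 1.89, SE 0.98, limma adjusted p = 0.325). S100a10 was at 10967, 14866 and 27457 and at 57001, 18945 and 63929, with CT113 again below a luminal library (log2 fold change -1.32, SE 0.53, adjusted p = 0.218). S100a4 was at 3004, 5099 and 5265 and at 10362, 25712 and 3414 (log2 fold change -1.16, SE 0.66, adjusted p = 0.366). That S100a4 difference was again much smaller without CT113 and larger without CT115. S100a6 was at 640092, 304549 and 403726 and at 203433, 345269 and 134822, S100a11 at 253057, 194551 and 211604 and at 106870, 130900 and 295057, and S100a13 at 2331, 773 and 1952 and at 4615, 1106 and 2108. All 3 overlapped between the groups, with log2 fold changes of 1.02, 0.45 and -0.54. S100a8 was at 62.8, 30.6 and 2421 in the luminal domains and S100a9 at 202, 79.8 and 4611, so among the domains CT148 alone was high for both (log2 fold changes -2.92, SE 2.12, and -1.83, SE 2.21, adjusted p = 0.484 and 0.684). The 10 members divided 5 higher and 5 lower, with a median log2 fold change of -0.05 against 0.01 over all genes (-0.30 against -0.03 with quantile normalization). The count of all genes called was 0 without CT128 or CT143, 3 without CT148, 22 without CT111, 160 without CT115 and 467 without CT113. Pparg rose by 6.31 on the log2 scale (SE 0.86, limma adjusted p = 0.0239), a call lost without CT111 (0.0544), CT128 (0.119), CT143 (0.121) or CT148 (0.0904), or without eBayes' trend (0.0587). The other called markers of the lists were Cnn1, Tagln and Acta2, lower, and Krt19, Upk3b, Upk2, Ivl and Sprr1a, higher. The squamous list had 6 higher and 4 lower of 10, with a median of 0.05. The epithelial list had 4 higher and 2 lower of 6, and the luminal list 10 higher of 10. Fibroblast markers, led by Col3a1, were lower in 7 of 7 (median -2.77) with 0 called by limma and 4 at an unadjusted p under 0.05, and summed to 31667, 6036 and 5298 in CT128, CT143 and CT148 and to 71458, 46663 and 65881 in CT111, CT113 and CT115. Their part in the lower S100a4 mean was not tested. Of the 8 called markers other than Pparg, 8 were lost without CT111 (adjusted p 0.0792 to 0.138), CT128 (0.119 to 0.173), CT143 (0.121 to 0.179) or CT148 (0.0847 to 0.144), and 6 without CT115 (0.0541 to 0.111). All 8 were also lost without eBayes' trend (0.0532 to 0.134), 4 without a filter (0.0690 to 0.0761), 2 with quantile normalization (0.0513 and 0.0522) or a pseudocount of 0.5 (0.0521 and 0.0523), and 1 with a pseudocount of 5 (0.0525) or upper-quartile scaling (0.0529). Neutrophil markers (2 higher and 4 lower of 6) and macrophage markers (2 higher and 9 lower of 11) had 0 called by limma, with 1 and 4 at an unadjusted p under 0.05.

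Among the 8 other S100 genes, S100a5 stood out in both comparisons with basal tumors. S100a5, a calcium, zinc and copper binding member known from olfactory neurons, lies between S100a4 and S100a6. It was at 195 to 279 in the 4-day controls and 226 to 456 in the mutants (log2 fold change 0.43, limma adjusted p = 0.323). In the tumors it was listed near 0 in the basal tumors CT111, CT113 and CT115, at 1.6, 0 and 1.9, and at 1136, 2215 and 126 in the luminal tumors CT126, CT132 and CT140. The groups lay far apart, and S100a5 rose past the threshold (log2 fold change 8.46, SE 1.31, adjusted p = 0.0257), though a fitted fold against values near 0 depends on the pseudocount (6.83 with 5, 8.98 with 0.5) and is no bound. S100a5 met the filter through the luminal libraries alone, and without a filter the adjusted p was 0.0489. The call was lost without CT111 (adjusted p = 0.0848), CT126 (0.0999) or CT132 (0.110). Against the same 3 basal tumors the luminal domains were at 1704, 657 and 508 against 1.6, 0 and 1.9 (log2 fold change 8.71, SE 1.11, adjusted p = 0.0219; 0.0400 without a filter), a call lost without CT111 (0.0656), CT128 (0.119), CT143 (0.121) or CT148 (0.0847). Of the other S100 genes tested, leaving S100a5 out, 0 of 5 was called by limma in either comparison. At 4 days, with S100a5 included, 0 of 6 was called and 1 had an unadjusted p under 0.05. S100a7l2 was listed at 0 in every library. S100g, a calcium buffer, had the highest mean of the 8 over all libraries of each table, without regard to length. It ran from 41.1 to 5971 within the basal tumors, and S100a3 lay above it in CT111 and CT113.

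**Figure D4:**
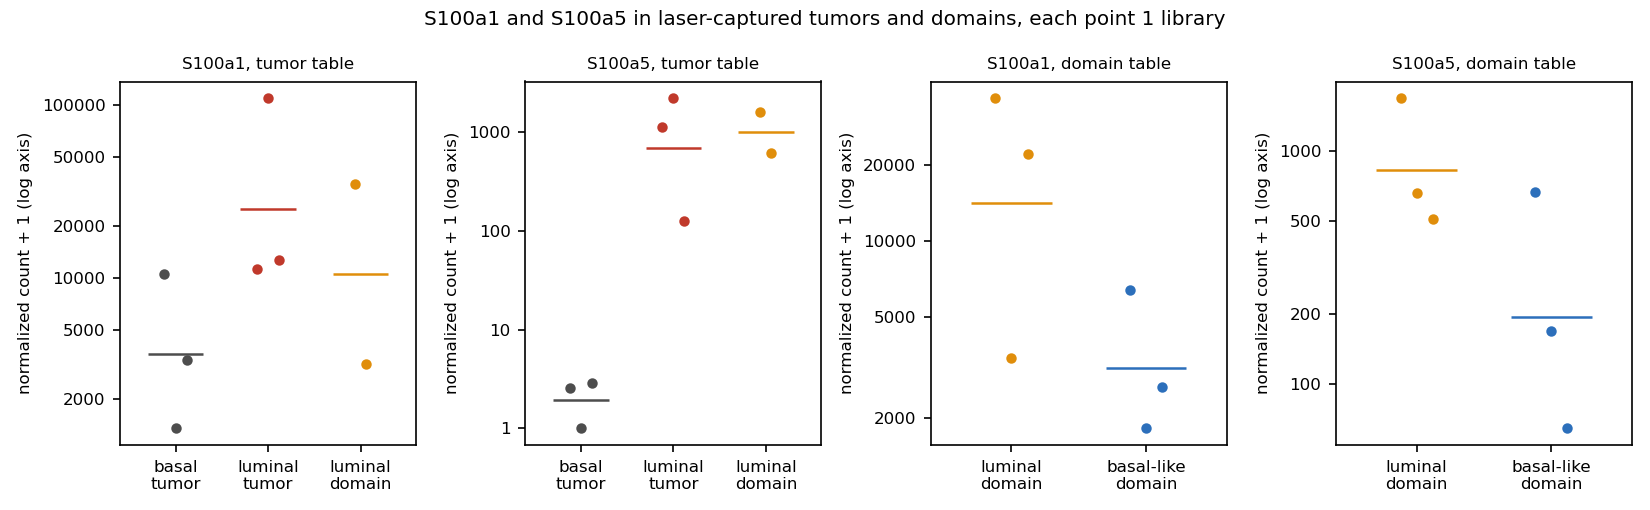
S100a1 and S100a5 (normalized count + 1, log axis) in each library of the tumor and domain tables, where each point is 1 library and lines are geometric means. S100a5 is listed between 0 and 1.9 in the basal tumors and at 126 or more in the luminal tumors, while S100a1 reaches 10652 in the basal tumor CT111, just under the lowest luminal tumor (11362).

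Within mixed lesions, the basal-like domains were compared with the luminal domains above them, which are the domains of the previous comparison in a table of their own. Of the 10 members 9 had a lower mean in the basal-like domains and S100a10 a higher one, and none separated the groups. S100a1 had the largest log2 fold change among the members. It was at 36643, 3433 and 22008 in the luminal domains CT128, CT143 and CT148 and at 6391, 1812 and 2647 in the basal-like domains CT129, CT144 and CT149. CT128 and CT148 lay above every basal-like domain and CT143 among them, though in each pair of adjacent library numbers the luminal domain held more (log2 fold change -2.17, SE 0.85, limma adjusted p = 0.935). Limma called 0 of 10 members and 0 of 14874 genes (0%), with 1 member and 757 genes at an unadjusted p under 0.05, and 20 genes without eBayes' trend. With adjacent library numbers paired as a block it called 1 gene and 0 members, with 1858 genes at an unadjusted p under 0.05, and S100a1 had an adjusted p of 0.148. The members' median log2 fold change was -0.40, against 0.01 over all genes, and -0.18 with quantile normalization. Labels do not tie domains to mice, and regions that share an animal can make p-values too small.

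S100a6 was at 636948, 306949 and 406535 in the luminal and 352675, 230363 and 297961 in the basal-like domains, and S100a11 at 248132, 193217 and 209961 and at 210282, 146115 and 152074. In each adjacent pair of libraries (CT128 with CT129, CT143 with CT144, CT148 with CT149) the luminal domain held more of both, though the groups overlapped (log2 fold changes -0.57 and -0.37, limma adjusted p = 0.938 and 0.951). S100a14 was at 24293, 21643 and 26250 and at 19614, 16323 and 23767, and S100a16 at 57776, 55659 and 68490 and at 47304, 41375 and 72842. S100a13 was at 2311, 777 and 1958 and at 1803, 633 and 1255, and S100a4 at 2935, 5046 and 5206 and at 3357, 3581 and 4730. All 4 overlapped, and the luminal domain held more in 3 of 3 pairs for S100a13 and S100a14 and in 2 of 3 for S100a16 and S100a4, with log2 fold changes of -0.43 (S100a13), -0.29 (S100a14), -0.21 (S100a16) and -0.15 (S100a4). S100a10 was at 10858, 14907 and 27509 and at 12878, 13994 and 39124, and its log2 fold change of 0.22 became -0.08 without CT128 and -0.29 without CT149. S100a8 was at 61.5, 30.4 and 2398 and at 10.3, 144 and 204, and S100a9 at 198, 79.2 and 4572 and at 76.6, 278 and 682. Their log2 fold changes of -1.27 and -0.77 rested on CT148 and CT129, and became 0.65 and 0.96 without CT148 and 0.04 and 0.06 without CT129. Neutrophil markers summed to 830, 6393 and 1718 and to 868, 3035 and 1624, and macrophage markers to 15852, 29408 and 44176 and to 35677, 18860 and 43544, so CT143, the luminal domain lowest for S100a8, had the highest neutrophil sum. S100a5 was at 1689, 659 and 510 and at 665, 167 and 63.1, lower in the basal-like domain of all 3 pairs (log2 fold change -2.11, SE 0.91, adjusted p = 0.935).

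Several marker lists also had different means in the 2 domains. Luminal markers, led by Krt18, were lower in 10 of 10 in the basal-like domains, with a median log2 fold change of -1.48, and summed to 531023, 186243 and 136311 in the luminal and 140823, 99430 and 45499 in the basal-like domains. Fibroblast markers, led by Col3a1, were higher in 6 of 7 (median 1.57) and summed to 32698, 6303 and 5520 and to 104544, 17347 and 14142, and T cell markers, led by Cd3g, were higher in 6 of 7 (median 1.46) and summed to 447, 960 and 1560 and to 1846, 1666 and 4055. Without the block limma called 0 in each list, with 4, 1 and 2 at an unadjusted p under 0.05. In each adjacent pair of libraries the luminal sum was higher in the luminal domain. The fibroblast and T cell sums were higher in the basal-like domain of each pair. The part of these lists in the lower S100 means was not tested.

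**Figure D5:**
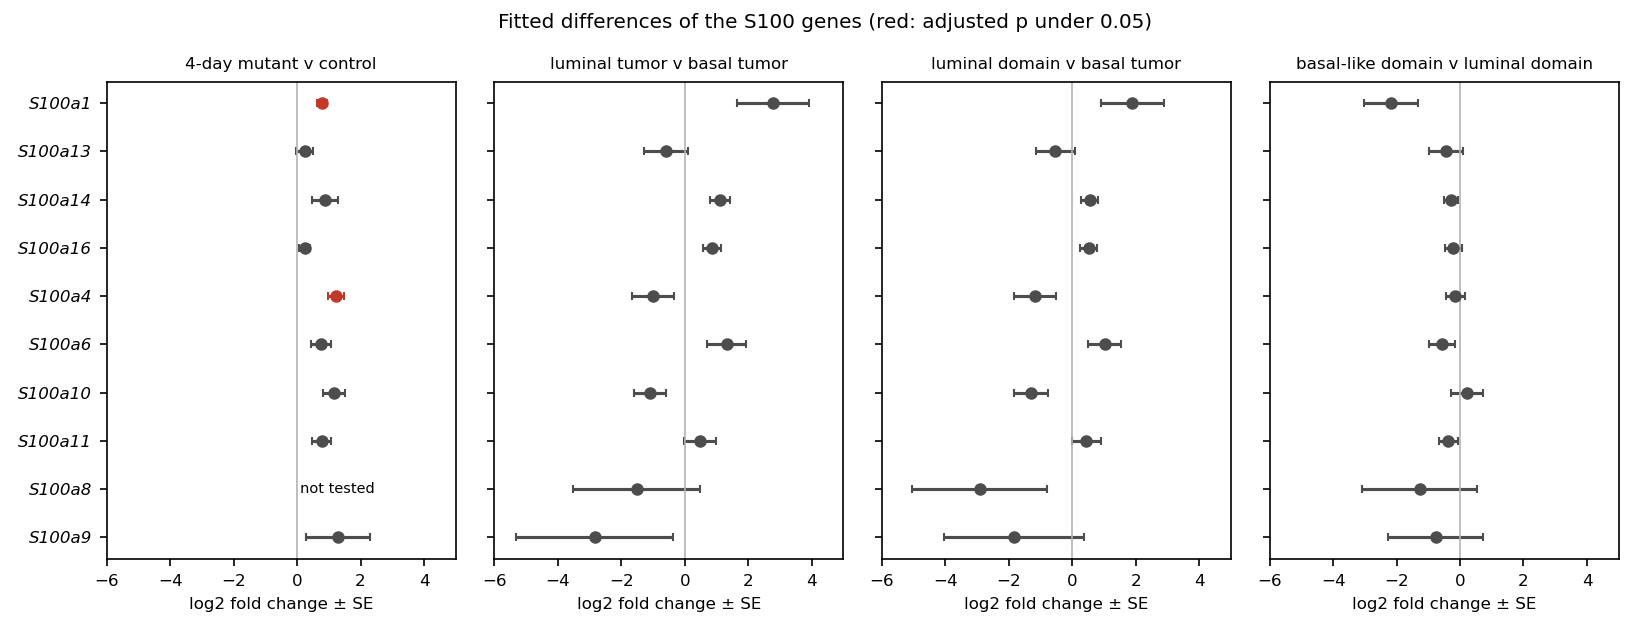
Log2 fold changes of the 10 S100 genes in the 4 comparisons, where points are limma estimates and bars are 1 standard error on each side. S100a1 (0.78) and S100a4 (1.22) at 4 days are the members that passed the test, and S100a8 has no 4-day estimate.

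Compared per kb of the longest coding transcript (GENCODE vM21), S100a6 and S100a11 were the most abundant members in every group. In the 4-day controls S100a6 averaged 92445 ± 23671 (SD) normalized counts per kb and S100a11 40604 ± 5919, followed by S100a16 at 11327, S100a1 at 3163 and S100a10 at 2447. The ranges of S100a1 and S100a10 overlapped, as did those of S100a14 (1024) and S100a4 (870), and S100a13 (253), S100a9 (11) and S100a8 (8.6) came last. In the mutants the order kept S100a6 (162819) before S100a11 (75558), now with overlapping ranges, and placed S100a10 (5886) beside S100a1 (5489). In the basal tumors S100a11 (335580) and S100a6 (298645) could not be ordered beyond their ranges. S100a10 (65478), S100a16 (35851), S100a4 (25495), S100a14 (14966), S100a9 (10637), S100a8 (7858), S100a1 (7571) and S100a13 (3503) followed, each overlapping the next. In the luminal tumors S100a6 (769079) and S100a11 (442976) were followed by S100a1 (65907) and S100a16 (65178), then by S100a14 (32825) and S100a10 (28563), and after S100a4 (9840) by S100a9, S100a8 and S100a13, which overlapped. The place of S100a1 rests on CT132 (162194, against 16782 in CT126 and 18744 in CT140), and without it the mean of 17763 lies below those of S100a16, S100a14 and S100a10. S100a9 and S100a8 rest on CT140 and average 63.8 and 263 without it. Levels of the 4-day and tumor tables were normalized apart and are not compared.

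The members together made up 0.224% to 0.334% of a control library's summed normalized counts at 4 days and 0.307% to 0.722% of a mutant library's, with CT070 highest. In the tumor table their share was 1.05%, 1.34% and 1.24% in CT111, CT113 and CT115, and 1.91%, 2.54% and 1.12% in CT126, CT132 and CT140. The luminal tumor CT140, high for S100a8 and S100a9, thus had a share within the basal range.

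None of the listed partners of the S100 proteins was called at 4 days or in luminal against basal tumors. Of 8 genes of annexins and Ahnak, a large S100a10 partner, 5 had a higher and 3 a lower mean at 4 days, with 0 called by limma and a median log2 fold change of 0.24. Of these 4 had an unadjusted p under 0.05, against 3418 of 16413 genes, and 2 were higher without overlap, against 767 (4.67%). Anxa1, the partner of S100a11, was higher in every mutant library (log2 fold change 0.69, SE 0.20, adjusted p = 0.0910), and Anxa2, the partner of S100a10, overlapped (0.54, adjusted p = 0.179). In luminal against basal tumors 4 were higher and 4 lower, again with 0 called and 2 at an unadjusted p under 0.05. Of 9 other partners and receptors, led by Bsg and including Cacybp, Myh9, Fgf1, Il1a, Ager and Tlr4, 6 were higher and 3 lower at 4 days, and 4 and 4 of the 8 tested in luminal tumors, each time with 0 called and 1 at an unadjusted p under 0.05. Fgf1, which S100a13 helps to release, lay higher in every luminal tumor than in any basal tumor (log2 fold change 4.69, SE 1.68, adjusted p = 0.185). It is 1 of 2 among these 8 that were higher without overlap, against 1533 of 15357 genes (9.98%). Over all genes 2820 had an unadjusted p under 0.05 in this comparison. The fused S100 genes, such as Flg and Rptn, which join an S100 domain to a long repeat in cornifying cells, had 2 of 7 tested at 4 days and 4 of 7 in the tumors, with 0 called and 1 and 0 at an unadjusted p under 0.05. Rptn was the most abundant in the tumors and Tchh at 4 days.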

How the data were processed

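RNA-seq tables of sorted urothelial cells and laser-captured tumors were used. Per the submitters' processing notes, reads were handled with bcl2fastq 2.20, kallisto 0.44.0, sleuth and DESeq2 1.18. The deposited signal values are the authors' DESeq2-normalized counts, from which whole reads could not be recovered, and each table was tested alone. Deposited lists of differential genes hold the authors' log2 fold changes and p-values and were not used, nor were the 8 columns of the BBN table, which the labels do not assign to a condition. That comparison was not analysed here.

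Libraries were assigned to groups through the tables their descriptions name. A gene entered a test if 10 normalized counts or more were reached by a number of libraries no smaller than the smaller group. Tests used limma 3.58.1 (lmFit, then eBayes with trend) in R 4.3.3. A pseudocount of 1 was added before log2, which shrinks the changes of low genes. P-values were adjusted over all tested genes with the Benjamini-Hochberg method at 0.05. For luminal against basal tumors, the 2 luminal domains of that table shared the estimate of spread. The fits were tested on simulated data, and no result given here rests on that. Nothing beyond the labels says that replicates are separate mice.

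The members and gene lists were chosen with earlier results of these data known. All members are named, and from each list up to 4 called genes by size of fold change and the most abundant marker. S100a5, S100g, Anxa1, Anxa2 and Fgf1 have values given because of their levels or partners, some chosen after these were seen. Alternatives were other pseudocounts, filters and scalings, eBayes without trend, the smaller 4-day table, other groupings of luminal libraries, a replicate block and each library left out. Domain columns carry library numbers in place of replicate numbers. Adjacent numbers deviated together (r = 0.36, 0.35 and 0.33, other pairs -0.11 to -0.20) and formed the block. Levels were first centred within each domain, so negative values in the other pairs follow from positive ones in the adjacent pairs. Positions and promoters are from RefSeq and GRCm38.p6.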

Additional observations from a re-analysis of the deposited data

Results flagged for a closer look

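S100a10 in the 4-day controls had a library far from the others. CT067 held 2355 normalized counts, and the other 3 controls lay between 1435 and 1480. It is the 1 such library found for the S100 members in the 4-day groups, and chance gives such a flag in about 1 in 20 groups. The fibroblast markers were also highest among controls in CT067 (84728), and their part in this value was not tested.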

How the results depend on the processing

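The 2 members called at 4 days became 0 with eBayes without trend and 0 in the smaller table of 3 against 3 libraries. Without the 3 controls of high Y-linked level, a setting added after seeing the data, 1 control remains and the fit says nothing about stability. In that fit 9 of 10 members had a higher mean in mutants and 1 a lower one. Leaving out each library gave between 0 and 2 members called. In the other 3 comparisons 0 members were called under every alternative run, the replicate block included, with 0 when each library was left out. Directions turned for S100a11 in luminal tumors with quantile normalization (-0.13), and between domains for S100a8 (0.65 without CT148, 0.04 without CT129), S100a9 (0.96 and 0.06), S100a10 (-0.08 without CT128, -0.29 without CT149) and Fabp4 (1.19 without CT128, 0.87 without CT149). The same genes moved further in their own direction to -2.48 (S100a8) and -1.96 (S100a9) without CT143, 0.59 (S100a10) without CT148 and -2.07 (Fabp4) without CT129. The cause was not tested.

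All genes called at 4 days numbered 467, and 269 without trend, 147 in the smaller table, 8 without the 3 controls and 129 to 596 with each library left out. Luminal against basal tumors gave 338, and 52 without a filter, 142 without trend, 513 with all 5 luminal libraries, 142 with the luminal domains out of the fit and 3 to 813 with each library left out. Luminal domains against basal tumors gave 377, and 144 without a filter, 107 without trend and 0 to 467 with each library left out. The domains gave 0, and 20 without trend, 1 with the replicate block and 0 with each library left out. Quantile normalization split the 4-day calls into 270 higher and 287 lower (290 and 177 otherwise), and upper-quartile scaling those of luminal domains against basal tumors into 179 and 134 (254 and 123). The median of all genes moved from -0.11 to 0.02 with quantile normalization in luminal tumors, and from 0.01 to -0.14 with upper-quartile scaling in luminal domains. The study aimed at 40 M reads a library, and the most common low value above 0 at 4 days was 0.73 to 1.47 normalized counts a library. S100a8 and S100a9 at 4 days lay near these values in several libraries.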
